A study of Mus musculus with 4 samples.

Results

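The genes described here are the 36 nuclear genes of the mouse that encode subunits of respiratory complex I (NADH dehydrogenase), from Ndufa1 to Ndufv3. They were examined in open-chromatin profiles (ATAC-seq) of newborn hearts. Their regions were chosen by position. Overlapping peaks of the 4 libraries were merged into 53140 regions, and those within 5 kb of the body of a complex I gene on the build GRCm38 were kept. This gave 70 regions, of 38861 within 5 kb of any of 21631 protein-coding genes. Each gene had a start region, within 1 kb of the annotated start in 33 genes and of either end of the gene in Ndufa2, Ndufb9 and Ndufs1, for which no start was given. The remaining 34 regions lay elsewhere within the window.

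The study compared nuclei of whole hearts of C57BL/6 mice on postnatal day 0, of which 2 were wild type (WT 1 and WT 2) and 2 were knock-outs (edKO 1 and edKO 2). The edKO hearts were designed to lack the nuclear receptors RXR alpha and RXR beta in cardiomyocytes only. Whether all other cells of these hearts kept both receptors was not checked. Which Cre driver was used is not given in the sources used here. Each library came from 1 heart. ATAC-seq marks DNA that the transposase Tn5 can reach, and a peak is a stretch where cut fragments pile up above the local background.

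Complex I takes electrons from NADH and passes them to ubiquinone while it moves protons across the inner mitochondrial membrane. Its N module oxidizes NADH, its Q module reduces ubiquinone, and its membrane arm, the proximal and distal P modules, pumps protons. The perinatal heart turns from glycolysis to the oxidation of fatty acids, whose electrons enter the respiratory chain in part through complex I, and RXR is the partner of the PPAR receptors that switch on fatty acid genes. Nuclear respiratory factor 1 (NRF1), ETS factors such as GABP, and the estrogen-related receptors (ERR) are known regulators of nuclear genes for respiratory subunits. Ndufa4, kept here under its listed name, is now counted with complex IV.

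Promoter sequences are shown for the members on which the results below turn. They are the 250 bases before the annotated start, 5′ to 3′ on the strand of the gene, from RefSeq on GRCm38.p6, which held a promoter for 33 of the 36 genes. Capitals mark, on either strand, the NRF1 core TGCGCA, the ETS core CCGGAA, the ERR core AAGGTCA and the nuclear receptor half-site AGGTCA, which lies within the ERR core. The first 3 belong to genes with some of the strongest start regions.
Ndufa6 (chr15:82354292-82354541, minus strand): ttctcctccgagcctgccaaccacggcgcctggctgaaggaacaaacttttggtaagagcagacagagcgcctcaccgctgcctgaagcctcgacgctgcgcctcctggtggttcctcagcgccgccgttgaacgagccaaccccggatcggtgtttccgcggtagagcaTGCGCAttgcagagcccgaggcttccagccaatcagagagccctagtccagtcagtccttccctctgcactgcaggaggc
Ndufv1 (chr19:4012756-4013005, minus strand): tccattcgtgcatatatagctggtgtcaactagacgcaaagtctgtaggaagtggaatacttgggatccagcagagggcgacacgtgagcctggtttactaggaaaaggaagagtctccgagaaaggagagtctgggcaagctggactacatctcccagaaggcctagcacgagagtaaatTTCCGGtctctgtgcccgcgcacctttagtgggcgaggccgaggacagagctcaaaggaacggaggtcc
Ndufv2 (chr17:66101560-66101809, minus strand): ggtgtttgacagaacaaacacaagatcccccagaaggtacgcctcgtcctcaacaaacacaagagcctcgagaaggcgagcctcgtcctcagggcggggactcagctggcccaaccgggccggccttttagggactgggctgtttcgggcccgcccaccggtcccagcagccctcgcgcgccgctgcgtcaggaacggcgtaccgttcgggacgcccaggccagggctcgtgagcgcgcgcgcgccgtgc
The next 2 belong to the only members whose start region was not called in every library.
Ndufa9 (chr6:126849145-126849394, minus strand): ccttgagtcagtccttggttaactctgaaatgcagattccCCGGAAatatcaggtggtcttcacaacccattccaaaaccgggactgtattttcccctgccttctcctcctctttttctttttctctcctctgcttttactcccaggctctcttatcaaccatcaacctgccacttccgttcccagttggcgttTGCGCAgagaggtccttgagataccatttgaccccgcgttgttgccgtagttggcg
Ndufs4 (chr13:114388095-114388344, minus strand): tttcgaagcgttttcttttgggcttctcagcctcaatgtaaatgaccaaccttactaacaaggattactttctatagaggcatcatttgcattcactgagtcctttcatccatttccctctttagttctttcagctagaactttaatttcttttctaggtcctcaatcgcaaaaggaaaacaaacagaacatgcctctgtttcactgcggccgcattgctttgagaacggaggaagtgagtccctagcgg
Both following promoters hold an ERR core and an NRF1 core together.
Ndufb4 (chr16:37654369-37654618, minus strand): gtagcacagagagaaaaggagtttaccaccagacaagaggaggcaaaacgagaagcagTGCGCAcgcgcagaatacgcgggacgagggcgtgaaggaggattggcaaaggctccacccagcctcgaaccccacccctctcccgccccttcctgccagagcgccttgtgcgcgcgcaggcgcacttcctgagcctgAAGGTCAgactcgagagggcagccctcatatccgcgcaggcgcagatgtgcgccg
Ndufs5 (chr4:123718187-123718436, minus strand): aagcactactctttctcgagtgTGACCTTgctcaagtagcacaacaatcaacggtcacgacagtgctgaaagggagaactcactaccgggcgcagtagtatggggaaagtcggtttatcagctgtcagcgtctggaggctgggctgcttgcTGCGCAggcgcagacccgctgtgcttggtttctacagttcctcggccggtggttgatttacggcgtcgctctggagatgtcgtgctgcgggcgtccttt
The last belongs to the member that ranked higher in the edKO hearts by the widest margin.
Ndufb10 (chr17:24724424-24724673, minus strand): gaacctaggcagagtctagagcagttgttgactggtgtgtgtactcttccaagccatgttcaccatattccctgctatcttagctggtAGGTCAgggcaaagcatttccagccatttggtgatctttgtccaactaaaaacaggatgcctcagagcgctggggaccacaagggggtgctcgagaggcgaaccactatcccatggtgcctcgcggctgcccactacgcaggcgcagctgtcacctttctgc

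The libraries differed in yield. The lists held 35279 and 38809 peaks in WT 1 and WT 2 and 27473 and 27142 in edKO 1 and edKO 2, with a median pileup of 23, 23, 19 and 18 fragments at the summit. Marker genes of cell types of the heart were called at the start in all 4 libraries for 8 of 8 cardiomyocyte, 3 of 6 endothelial, 1 of 5 fibroblast, 1 of 4 mural, 0 of 4 immune, 1 of 4 erythroid and 0 of 4 neuronal and Schwann cell genes. The start regions of the targeted genes Rxra and Rxrb were called in every heart, with −log10 p of 10.7 and 32.6 in WT and 25.8 and 6.28 in edKO for Rxra, and of 61.1 and 49.4 in WT and 40.7 and 20.6 in edKO for Rxrb. Because the deleted part of each gene was not located here, this is no check of genotype. Each library is a mixture of heart cells, in which fewer cells of a type and less open chromatin per cell cannot be told apart.

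Chromatin at the start of complex I genes was open in nearly every heart. Of the 36 start regions, 36, 36, 36 and 34 were called in WT 1, WT 2, edKO 1 and edKO 2, and 34 (94.4%) were called in all 4 libraries, against 47.3% of all protein-coding genes. Among start regions called in at least 1 library, the share called in all 4 was 76.7% over all protein-coding genes. The start regions were 330 to 1334 bp wide, with a median of 708 bp. No test was made of these shares, because the members were chosen with earlier results known.

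The start regions also stood high in each list. Their strength was taken from the −log10 p that the authors' peak caller gave at the summit, which depends on depth and so describes a peak within its own library. Its median over the members was 40.9 and 49.7 in WT 1 and WT 2 and 26.7 and 19.2 in edKO 1 and edKO 2, where the median of all peaks was 11.9, 12.1, 11.0 and 8.54. Ranked within each list from 0 (weakest) to 100 (strongest), the median member stood at 82.8, 85.9, 76.8 and 77.6. Start regions of all protein-coding genes stood at 80.2, 80.7, 76.5 and 76.5; the members were above them in every library, by little in edKO 1. The median fold enrichment over local background, also the authors' value, was 9.61, 10.6, 8.93 and 7.09 at the members.

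**Figure D1:**
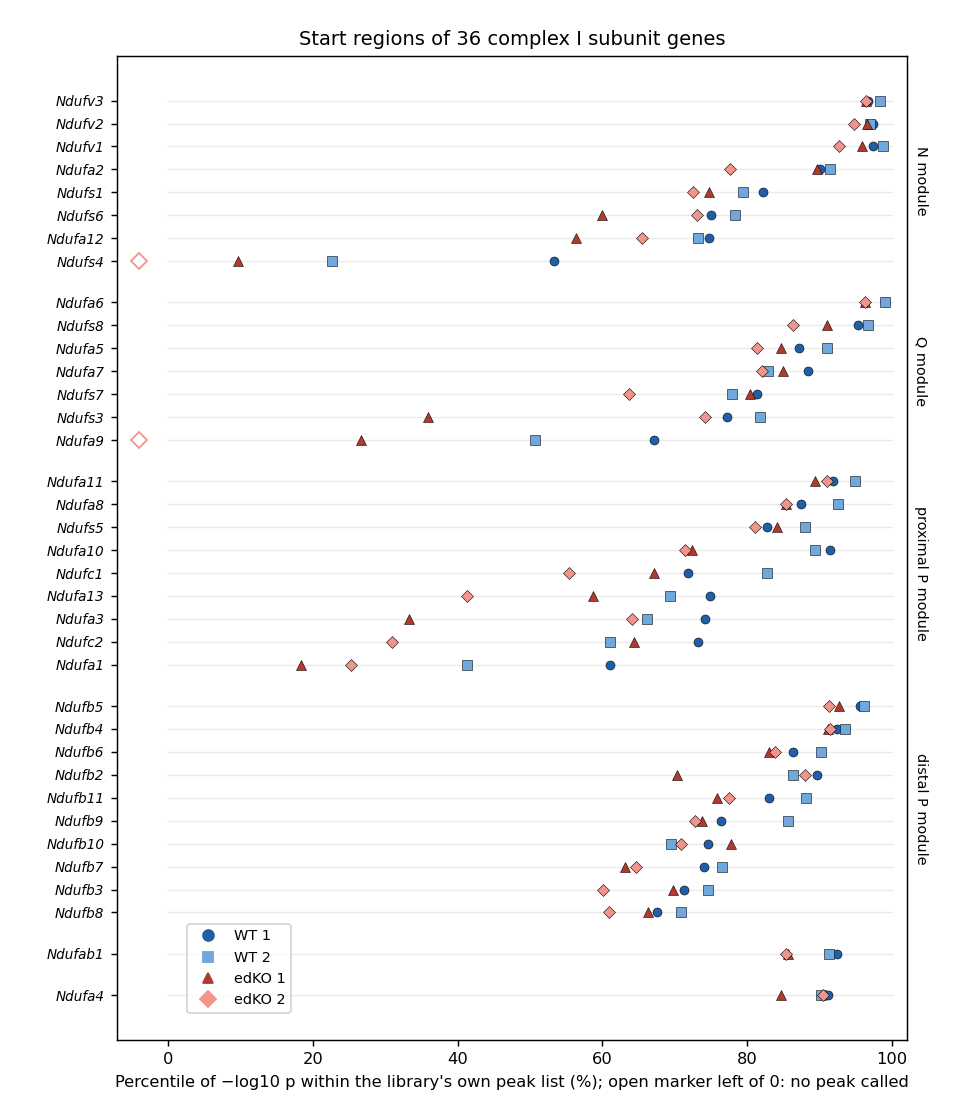
Percentile of the authors' −log10 p of each start region within the list of its own library (x axis, 0 weakest to 100 strongest) for the 36 complex I genes (y axis, grouped by module), with 1 point per library and an open marker left of 0 where edKO 2 called no peak. Ndufa6 has the highest mean, 97.6, and Ndufs4 the lowest, 21.4, with the missing call counted as 0.

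The 5 strongest start regions by mean percentile were those of Ndufa6, Ndufv3, Ndufv2, Ndufv1 and Ndufb5, which include all 3 Ndufv genes of the N module. Ndufv1 encodes the subunit that binds NADH and the flavin that takes up its electrons. Its start region had a −log10 p of 122, 162, 87.3 and 45.3 in WT 1, WT 2, edKO 1 and edKO 2, and a pileup of 151, 184, 97 and 67 fragments. Ndufv2, an iron-sulfur subunit of the same module, had −log10 p of 122, 124, 92.5 and 53.1, and the accessory subunit Ndufv3 had 113, 149, 92.0 and 63.4. The top member was Ndufa6, a Q-module subunit of the LYR family that docks the acyl carrier protein. Its start region (chromosome 15, 82353933 to 82354629) reached 158, 171, 90.7 and 63.3, from pileups of 185, 187, 105 and 85 fragments. Ndufb5 of the distal P module stood at 100, 112, 65.4 and 41.0. In each of these 5 genes both WT values lay above both edKO values, as the medians of the lists also did.

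Strength varied more within the modules than between them. The median of the mean percentile was 82.2 over the 8 genes of the N module, 84.5 over the 7 of the Q module, 69.3 over the 9 of the proximal P module and 79.1 over the 10 of the distal P module. The acyl carrier protein Ndufab1 stood at 88.6 and Ndufa4 at 89.1. Members ranged from 21.4 to 96.9 within the N module alone. The proximal P module held 3 of the 5 weakest start regions. These were Ndufa1, a small X-linked membrane subunit, at −log10 p of 16.1, 9.97, 6.22 and 6.04 in WT 1, WT 2, edKO 1 and edKO 2; Ndufc2 at 25.4, 16.2, 16.6 and 6.46; and Ndufa3 at 26.8, 19.2, 8.03 and 11.8.

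The remaining members of the weakest 5 were Ndufs4 and Ndufa9, and both lacked a call in edKO 2. Ndufa9, a nucleotide-binding subunit near the ubiquinone site, had its start region on chromosome 6 (126848797 to 126849345). The −log10 p there was 19.9 in WT 1, 12.3 in WT 2 and 7.13 in edKO 1, from 28, 19 and 11 fragments, and edKO 2 had no peak. Ndufs4 encodes an accessory subunit of the N module whose loss in mice causes a disease like Leigh syndrome. Its start region (chromosome 13, 114387898 to 114388227) was called at 12.9 in WT 1, 7.20 in WT 2 and 5.36 in edKO 1, from 18, 12 and 9 fragments. A separate peak in edKO 2 began 215 bp downstream of the start, in the gene body (114387369 to 114387879), at 6.88, and WT 1 had a peak there at 6.31. These missing calls came at weak regions and in the library with the lowest median pileup, and the part of depth was not tested. Over all protein-coding genes, 4.93% of start regions called in both WT libraries and edKO 1 lacked edKO 2, against 2 of 36 members (5.56%).

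**Figure D2:**
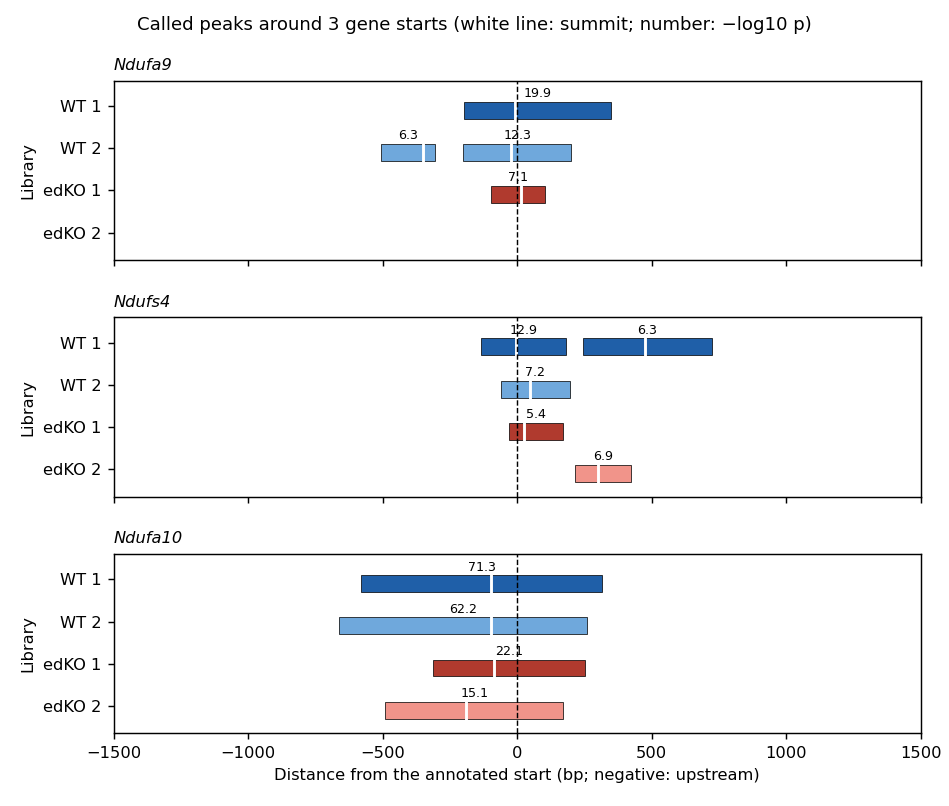
Called peaks around the start of Ndufa9, Ndufs4 and Ndufa10 in the 4 libraries (x axis, distance from the annotated start in bp, negative upstream), with a white line at the summit and the authors' −log10 p above each bar. edKO 2 has no peak at Ndufa9 and only a downstream one at Ndufs4, while Ndufa10 has a peak in every library, at 71.3 and 62.2 in WT and 22.1 and 15.1 in edKO.

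Over all 70 regions, the libraries called between 54 and 60. WT 1 called 59, WT 2 60, edKO 1 58 and edKO 2 54, or 84.3%, 85.7%, 82.9% and 77.1%. The counts of the genotypes did not overlap, but edKO 1 was only 1 region below WT 1. The mean was 59.5 ± 0.707 (SD, n = 2) in WT and 56 ± 2.83 (SD, n = 2) in edKO, a ratio of 0.941, with p = 0.333 by the exact permutation test over libraries, two-sided, which is the smallest p that 2 hearts against 2 can give. Over all regions near protein-coding genes the edKO hearts called 20764 ± 298 (SD, n = 2) and the WT hearts 27743.5 ± 1730 (SD, n = 2), a ratio of 0.748 (exact p = 0.333). When every list was cut to the length of the shortest, the order at the members turned, with 53, 54, 58 and 54 regions called in WT 1, WT 2, edKO 1 and edKO 2 and a WT minus edKO difference of −2.5 (exact p = 0.667). Near all protein-coding genes 21165, 21282, 20807 and 20596 regions were then called, where WT was still above edKO. The main difference of 3.5 regions was 1.5 without edKO 2 and 5.5 without edKO 1.

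Of the 70 regions, 48 (68.6%) were called in all 4 libraries, against 36.4% of all regions near protein-coding genes. Regions called in 3, 2 and 1 libraries numbered 6, 5 and 11, and those in 1 library were weak, with −log10 p from 4.13 to 6.98. The share in 1 library was 15.7%, against 35.5% near all protein-coding genes. Beyond the start regions, 14 of 34 (41.2%) were called in all 4 libraries, against 18.4% for all protein-coding genes. These sets are unlike. The 18.4% leaves out the start regions of every gene, whereas the 34 can include start regions of neighbouring genes. Of these 34 regions, 16 lay within 1 kb of an end of another protein-coding gene, and 9 of the 16 were called in all 4. Away from such ends, 5 of 18 were called in all 4 and 9 in 1 library. The members had 1 region (10 genes), 2 (18 genes) or 3 (8 genes: Ndufa5, Ndufa7, Ndufa10, Ndufa13, Ndufb6, Ndufb7, Ndufs4 and Ndufv3).

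**Figure D3:**
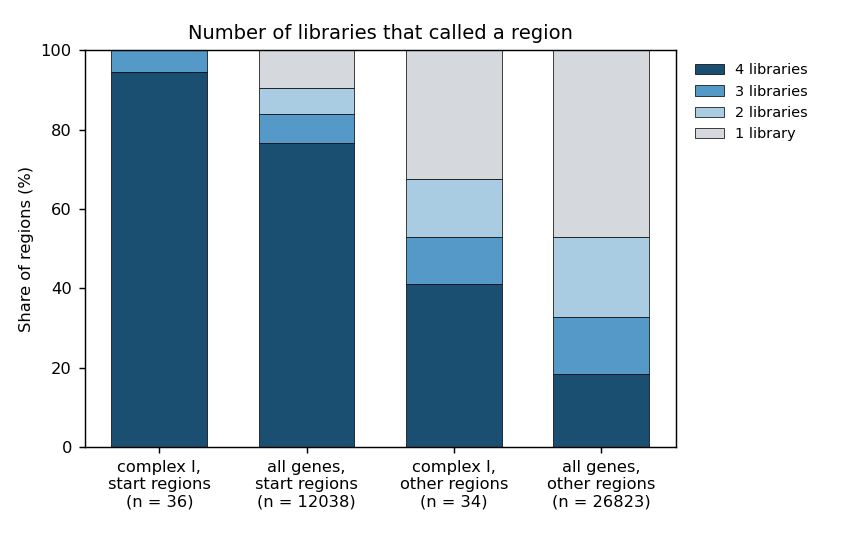
Share of regions (y axis, %) called by 4, 3, 2 or 1 libraries, as stacked bars, for start regions and other regions of the complex I genes and of all protein-coding genes (x axis). Start regions of complex I genes were called in all 4 libraries in 94.4% of cases and those of all protein-coding genes in 76.7%. The other regions of all genes leave out every gene's start region, whereas those of complex I genes can include starts of neighbours.

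Calls that followed genotype were rare near complex I genes. Of the 54 regions that both WT hearts called, 1 (1.85%) was called by neither edKO heart (WT-only), against 16.6% near all protein-coding genes. Of the 49 called in both edKO hearts, 0 were edKO-only, against 1.12%. At the start regions 0 of 36 were WT-only, where the share over all protein-coding genes was 3.47%. Elsewhere 1 of 18 (5.56%) was WT-only, against 28.1% in the set that leaves out the start regions of every gene. The WT-only region lay on chromosome 1 (63181094 to 63181404), 4272 bp from the body of Ndufs1, which encodes the largest iron-sulfur subunit of the N module. It lay within 1 kb of the end of the neighbouring gene Eef1b2 (63176831 to 63180486), a translation elongation factor, and the 2 WT libraries called it at −log10 p of 26.9 and 19.0. The start region of Ndufs1 (63176397 to 63177361), which reaches into Eef1b2, was called in all 4 libraries at 39.3, 34.3, 24.5 and 15.7. With a window of 1 kb around the gene body, or without regions at the ends of neighbouring genes, the count of WT-only regions was 0, and with a window of 10 kb it was 3. With lists of equal length the count was 1 (1.92%), against 8.79% near all protein-coding genes. Leaving out 1 library asks for fewer calls, and the count was then 4 without WT 1 (6.67%, against 30.5% near all protein-coding genes), 4 without WT 2 (6.78% against 26.9%), 6 without edKO 1 (11.1% against 31.1%) and 1 without edKO 2 (1.85% against 21.6%). The window itself passed between like regions. Just inside it were regions 4629 bp from Ndufa7 (13.3, 21.4, 7.98 and 7.14) and 4506 bp from Ndufv3 (10.2, 11.2, 11.8 and no call), and just outside it were regions 5584 bp from Ndufb7 (21.0, 26.9, 9.44 and 11.5) and 5942 bp from Ndufa3 (6.10 in edKO 2 alone).

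To compare strength between libraries of unlike yield, the −log10 p was ranked within each library over the same 16568 regions, those called in all 4 libraries. On this scale, the common percentile, the median of the 34 complex I start regions was 67.4 and 69.9 in WT 1 and WT 2 and 65.5 and 63.4 in edKO 1 and edKO 2. Both edKO medians lay below both WT medians, at 64.5 ± 1.50 against 68.7 ± 1.81 (SD, n = 2), a difference of 4.20 percentile points with the smallest possible p of 0.333 (exact permutation test, two-sided). It was 2.79 without edKO 2 and 2.27 when ranked by fold enrichment. The median start region of all protein-coding genes was at 65.8, 64.5, 65.6 and 66.4. Per member, the median difference of edKO minus WT was −3.83, and over start regions of all protein-coding genes it was 0.386. Both edKO percentiles lay below both WT percentiles in 8 of 34 members (23.5%, against 17.8% of start regions of all protein-coding genes) and above them in 3 (8.82%, against 21.7%). In the other 23 the groups overlapped.

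The member with the widest gap was Ndufa10, a proximal P subunit related to deoxyribonucleoside kinases. Its start region (chromosome 1, 92473443 to 92474420) had a −log10 p of 71.3, 62.2, 22.1 and 15.1 in WT 1, WT 2, edKO 1 and edKO 2, and common percentiles of 81.6, 75.1, 54.5 and 53.6, a difference of −24.3. The pileup there was 85, 74, 30 and 25 fragments. A second Ndufa10 region, 1242 bp past the end of the gene (92437630 to 92438244) and named after its values had been seen, was at 24.1, 33.8, 9.59 and 6.17, with common percentiles of 42.2, 51.7, 19.0 and 8.85. In these 2 of the 3 regions of Ndufa10 the edKO hearts ranked below the WT hearts without overlap. The remaining region was called in WT 2 alone and had no common percentile. The other 7 members whose start region ranked lower in both edKO hearts were Ndufs8 and Ndufa6 of the Q module, Ndufv1 of the N module, Ndufb5, Ndufb7 and Ndufb11 of the distal P module, and Ndufab1.

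Other large differences rested on overlapping groups. Ndufs3, a core subunit of the Q module, stood at common percentiles of 52.2, 57.7, 13.2 and 58.0, so edKO 1 alone was low. Its difference of −19.4 became 2.82 without edKO 1. Ndufa13, also known as GRIM-19, stood at 47.6, 33.0, 34.8 and 17.5, Ndufc1 at 42.2, 59.9, 46.6 and 30.7, and Ndufa1 at 25.8, 6.97, 4.51 and 7.61, and in each of these the groups overlapped. In the proximal P module, which holds Ndufa10, Ndufa13, Ndufc1 and Ndufa1, the median difference was −10.2, where the N, Q and distal P modules had −2.78, −3.84 and −1.66. The groups overlapped in 8 of its 9 members, and only Ndufa10 ranked lower in both edKO hearts.

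**Figure D4:**
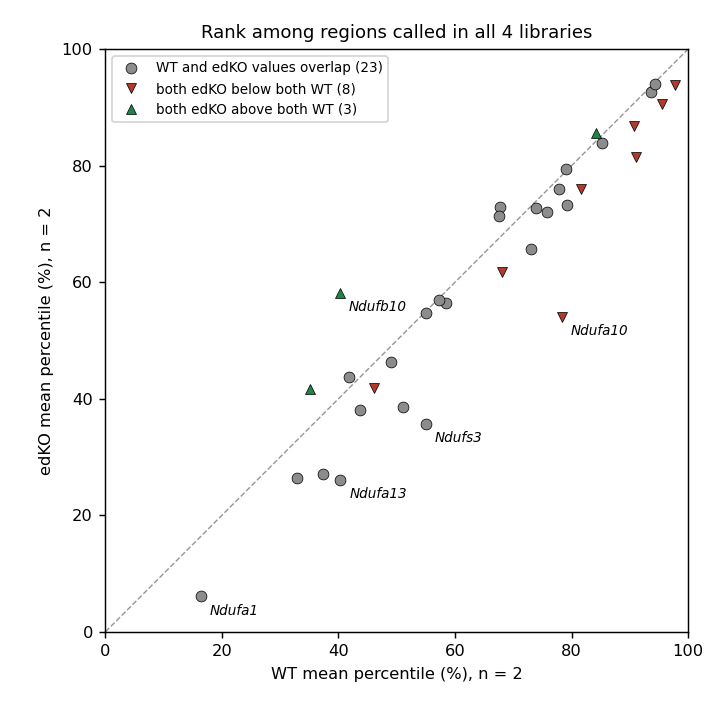
Mean common percentile of the 34 start regions called in every library in the edKO hearts (y axis) against the WT hearts (x axis), 1 point per gene and the diagonal of equal rank, with triangles where the 2 groups do not overlap. Ndufa10 lies farthest below the diagonal, at −24.3, and Ndufb10 farthest above it, at 17.9.

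The members that ranked higher in both edKO hearts were all distal P subunits, namely Ndufb10, Ndufb8 and Ndufb4. Ndufb10 stood at common percentiles of 47.1, 33.3, 63.4 and 52.8 in WT 1, WT 2, edKO 1 and edKO 2, a difference of 17.9, which was 10.9 without WT 2 and 11.7 without edKO 1. Ndufb8 stood at 34.8, 35.6, 45.3 and 38.1, a difference of 6.48, which was 2.41 without edKO 1 and 0.834 when only peaks at −log10 p of 10 or more were kept. Ndufb4 stood at 83.8, 84.7, 85.3 and 86.0, a difference of only 1.38. The distal P module also held 3 members that ranked lower, so it moved in no single direction. Of the other members with the largest positive differences, Ndufa7 (5.17), Ndufs5 (3.83) and Ndufb3 (1.82) had overlapping groups, and each turned negative under at least 1 alternative given in the closing section. Among the 14 regions away from the starts that were called in every library, edKO ranked lower in 4, higher in 3 and overlapped WT in 7, against 19.9% lower and 20.2% higher over all 16568 regions.

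Some complex I genes share their start with a neighbour. Of the 36 start regions, 18 lay within 1 kb of either end, 5′ or 3′, of another protein-coding gene. The same share was not taken over all genes. Of the 33 members with an annotated start, 9 (27.3%) had the start of a gene on the opposite strand head to head with theirs, against 7.61% of 17274 protein-coding genes and 14.3% of the 8387 whose start region was called in all 4 libraries. Not among the 9 were Ndufs6, whose promoter window reached into Mrpl36, and Ndufa1, Ndufb11 and Ndufv3, whose windows reached into Rnf113a1, Rbm10 and Wdr4. The direction of these neighbours was not established here, so the count may miss pairs. The closest of the 9 pairs were Ndufa7 with Rps28, a ribosomal protein gene, at 10 bp between starts, Ndufs3 with Kbtbd4 at 19 bp, Ndufa11 with Vmac at 63 bp and Ndufb3 with Fam126b at 64 bp. Ndufa8 faced Morn5 at 135 bp, Ndufa13 faced Tssk6 at 164 bp, and Ndufb5 faced the mitochondrial ribosomal protein gene Mrpl47 at 308 bp. The widest pairs were Ndufa4 with Phf14 at 379 bp and Ndufa5 with Asb15 at 454 bp. In 7 of the 9 pairs 1 region covered both starts, so its signal cannot be assigned to either gene.

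Within the start region, the summit sat close to the annotated start and in much the same place in every heart. The mean summit lay within 100 bp of the start in 26 of 33 members, and the median of these means was −19.25 bp, just upstream. The median position by library was −32, −29, −25 and −16 bp in WT 1, WT 2, edKO 1 and edKO 2. The distance between the outermost summits of a member ranged from 4 to 348 bp, with a median of 67 bp over the 31 members called in all 4 libraries and 62 bp over 8387 genes. Ndufv3 was the tightest, with summits at −26, −25, −28 and −24 bp. Ndufa11 and Ndufa4 had theirs well upstream in every library, at means of −701 and −357 bp, on the side of their head-to-head partners.

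Ndufa12, an N-module subunit at the joint with the Q module, was the member in which the summits of the genotypes lay farthest apart. It lay at −45 and −42 bp in WT 1 and WT 2 and at 276 and 303 bp in edKO 1 and edKO 2, inside a single start region (chromosome 10, 94198812 to 94199661) called at −log10 p of 27.4, 25.4, 12.9 and 12.3. Summits of both WT hearts at least 200 bp from those of both edKO hearts were found in 1 of 34 members and in 0.704% of start regions of all protein-coding genes. This criterion was chosen after the values had been seen. In Ndufs7 the spread came from WT 1 alone (−345 bp against −36, −42 and −11), in Ndufa13 from edKO 2 (20 bp against 363, 301 and 353) and in Ndufb8 from edKO 2 (229 bp against −15, 28 and 40).

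**Figure D5:**
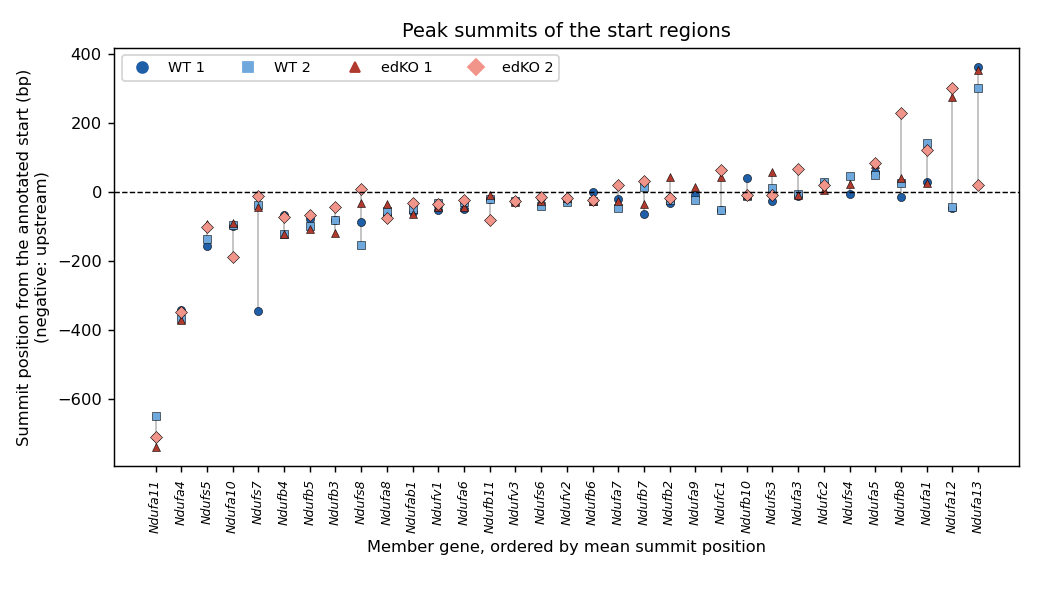
Position of the summit relative to the annotated start (y axis, bp, negative upstream) in each library for the 33 members with an annotated start (x axis, ordered by mean position), with a line joining the libraries of a gene. Most points lie near 0, the summits of Ndufa12 separate into −45 and −42 bp in WT and 276 and 303 bp in edKO, and Ndufa11 lies near −701 bp in all 4 libraries.

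Motifs of known regulators were each found in a minority of the promoters. They were looked for as exact letters on both strands in the 250 bases before the start. The NRF1 core TGCGCA was in 7 of 33 members (21.2%: Ndufa5, Ndufa6, Ndufa9, Ndufb4, Ndufb6, Ndufs5 and Ndufs6), against 8.31% of 17274 promoters and 13.5% of the 8387 whose start region was called in all 4 libraries. The ERR core AAGGTCA was in 3 (9.09%: Ndufb2, Ndufb4 and Ndufs5), against 3.60% and 2.47%. The shorter half-site AGGTCA, to which RXR and its partners also bind in pairs, was in 5 (15.2%), against 12.6% and 9.50%. Besides the 3 with the ERR core these were Ndufb10 and Ndufs8, of which the first ranked higher and the second lower in the edKO hearts.

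The remaining motifs were at a like or lower share than in promoters whose start region was called in all 4 libraries. The ETS core CCGGAA was in 8 (24.2%), against 15.4% of all promoters and 24.7% of those called in all 4 libraries. The cyclic AMP response core TGACGT was in 4 (12.1%, against 7.62% and 11.5%), the Sp core GGGCGG in 13 (39.4%, against 43.2% and 65.0%) and CCAAT, the core of NF-Y sites, in 10 (30.3%, against 36.8% and 38.2%). A match describes these letters only. Of the 2 promoters with a missing call, that of Ndufa9 held an ETS and an NRF1 core, and that of Ndufs4 held none of the 4 capitalised motifs.

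Genes that work with the subunits were read in the same way. Of 20 assembly factors, 19 were matched (Coa1 was not), and 18 of the 19 had a start region called in all 4 libraries, against 47.3% of all protein-coding genes. The exception was Ndufaf1, called only in WT 2 (−log10 p 9.97) and edKO 1 (8.06). Both WT hearts called 26 of their regions, and 3 of these (11.5%) were WT-only, against 16.6% near all protein-coding genes. They lay near Ndufaf3, which takes part in assembling the Q module (21.5 and 21.3 in WT 1 and WT 2), near Ndufaf5, which modifies Ndufs7 (6.31 and 7.20), and near Tmem242 (9.05 and 9.20). All 12 transcriptional regulators of respiratory genes had their start called in all 4 libraries. Both WT hearts called 57 of their 90 regions, and 9 of the 57 (15.8%) were WT-only, a share near the 16.6% of all protein-coding genes. Of these, 4 were near Esrrg, which encodes an ERR receptor of the heart, and 1 each near Gabpa, Ppargc1a, Ppargc1b, Yy1 and Ppara. The region near Gabpa, 1043 bp from its start, lay 542 bp from Atp5j and was counted for complexes II to V as well. For the subunits of complexes II to V, 38 of 41 start regions were called in all 4 libraries (not Uqcr11, Cox7b and Cox8b), 3 of 63 regions (4.76%) were WT-only and 1 of 56 (1.79%, against 1.12% near all protein-coding genes) was edKO-only, near Cox6a2. The differences between these lists and the complex I genes were not tested.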

How the data were processed

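ATAC-seq peak lists of 4 newborn hearts were used, 1 list per library, called per sample. The submitters' processing notes name CASAVA, bcl2fastq, cutadapt, Bowtie2, SAMtools and MACS2 and the builds mm10 and GRCm38. Not given in the sources used here are their versions, the Tn5 shift and the treatment of duplicates. The authors' deposited lists give for each peak a score, a fold (ratio) over local background, a −log10 p and a −log10 q-value, and the summit position. Fold and −log10 p served only to describe and rank peaks. The score and the −log10 q-value entered no comparison.

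Peaks were merged at an overlap of 1 bp, and a library counted as called where any of its peaks overlapped a region. Fold and −log10 p were solved together for a whole-number pileup of fragments and its background under a Poisson tail, within 0.001. Depth is thus known only through pileup and background. The step was tested on simulated data. Gene bodies and promoters came from RefSeq tables of GRCm38.p6. A start region is the region nearest the annotated start, within 1 kb. Ndufa2, Ndufb9 and Ndufs1 had no annotated start there, and either end of the gene was used. The motif windows were 250 bases long.

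Group means were compared by exact permutation over the 4 libraries. Named members were those with a missing start call or a genotype-specific region, the 5 highest and 5 lowest by mean percentile, those with the most regions, the 5 largest differences in each direction, and examples at the ends of other genes. Members and lists were chosen with earlier results of these data known. Alternatives tried were the window, a −log10 p of at least 10, lists of equal length, windows of 150 bp around summits, coverage of at least 50% of a region, regions at neighbouring genes left out, and each library left out. Python 3.11.15, pandas 2.3.3, NumPy 2.4.6 and SciPy 1.17.1 were used.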

Additional observations from a re-analysis of the deposited data

How the results depend on the processing

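The difference of regions called ranged from 1.5 to 5.5 and that of the median percentile from 2.79 to 5.37 when each library was left out, and both kept their sign. Leaving out each library in turn gave 1 to 6 WT-only and 0 to 3 edKO-only regions near complex I genes, 34 to 36 genes with a start called in every library, 3 to 6 WT-only regions near assembly factors and 15 to 18 near regulators. WT-only regions near complex I genes numbered 0 with a window of 1 kb, in the gene body only and without regions at ends of neighbouring genes, 3 with 10 kb (Ndufa3, Ndufb10 and Ndufs1), 4 with −log10 p of at least 10 (Ndufa7, Ndufa9, Ndufa10 and Ndufs1), 2 with summit windows (Ndufa12 and Ndufs1) and 2 with peaks over at least 50% of the region (Ndufa9 and Ndufs1). As shares of the regions called in both WT hearts, the last 4 were 4.17%, 8%, 3.77% and 3.70%, against 17.1%, 18.3%, 17.1% and 20.7% near all protein-coding genes. Genes with a start called in every library numbered 28 with −log10 p of at least 10, 30 with peaks over at least 50% of the region, 32 with summit windows and 34 in the other alternatives that keep all libraries. The difference in regions called was 0.5 to 9.5 in the other alternatives except lists of equal length, where it was −2.5, with 1 edKO-only region near complex I genes and 3 WT-only regions near regulators. Summit windows gave 2 edKO-only regions. Start calls then numbered 4 for Ndufs4, 3 for Ndufa9 and Ndufs7, and 2 for Ndufa11 and Ndufa12. With lists of equal length Ndufs4 had 2, so which members lacked a start call depended on the processing. Differences of single members were recomputed only for the 5 largest in each direction, so the sign of the others was not checked. Of these, that of Ndufb3 turned sign, at −2.22 with −log10 p of at least 10 and −5.22 when ranked by fold enrichment. When single libraries were left out, 4 turned sign. These were Ndufb3 (−5.04 without edKO 1, to 7.66), Ndufs5 (−0.413 without WT 1, to 7.95), Ndufa7 (−2.35 without WT 2, to 12.4) and Ndufs3 (2.82 without edKO 1, to −41.9). The ranking by fold and the 300-base window for motifs, which gave 10 members with the NRF1 core, were chosen after seeing the data, as were all alternatives for percentiles, assembly factors and regulators.

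With replicate numbers taken as a block, the WT minus edKO difference in regions called was 1 and 6 in pairs 1 and 2, a mean of 3.5 with an exact sign-flip p of 0.5, the smallest that 2 pairs allow. The labels do not say that equal numbers share a litter or day. With 2 hearts in each group no p below 0.333 was possible, and a region without a call was below the threshold of that library, which does not show that it was closed.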
